A study of Mus musculus with 49 samples.

Results

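The MYC, MAX and MXD network is a family of transcription factors, most of which share the partner MAX. Its members were taken here as the 10 gene symbols *Myc*, *Mycn*, *Max*, *Mxd1*, *Mxd3*, *Mxd4*, *Mxi1*, *Mnt*, *Mlx* and *Mga*, of 23992 symbols in the files. The longest transcript stood for each symbol. All 10 members passed the filter on low counts and were tested with 15566 genes in all.

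RNA-seq was performed on CD8+ T cells purified from the spleens of mice of a *Stat5a* line and a *Stat5b* line. In each KI line, the tyrosine that is phosphorylated when the STAT5 protein is activated was replaced by phenylalanine, by CRISPR editing of the germline, so that every cell of a KI mouse carried the change. The mice were adults of both sexes, backcrossed to C57BL/6J, and WT mice were littermates of the KI mice. WT cells and KI cells of each line were collected at 0 hr, without IL-2, or after 4, 24 and 48 hr in 500 IU/ml recombinant human IL-2, which makes 16 groups of 3 libraries. The labels do not say that the 3 libraries of a group came from separate mice, so the p-values measure the spread between libraries, which may be technical. The third library of *Stat5a* KI cells at 4 hr was left out, because it held 1028515 reads on the longest transcripts. The other 47 libraries held 17369112 to 60200653 reads, with a median of 41410666.

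Most proteins of the network bind DNA as dimers with MAX. MYC and MYCN with MAX activate genes of growth and biosynthesis, whereas the MXD proteins and MNT compete for MAX at the same E-box sites and recruit co-repressors. T cells induce *Myc* when they are stimulated by antigen or by IL-2, and MXD genes are better known from cells that rest or differentiate. MLX pairs with MNT, MXD proteins and the glucose-sensing MONDO factors, and MGA joins a MAX dimer to a Polycomb-type repressor complex.

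The labelled cell type was checked first. The 5 CD8 T cell markers summed to 822 to 1579 RPKM (reads per kilobase of transcript at a common depth of mapped reads) as group means, with no marker at 0 in any group. At 48 hr they summed to 1044 ± 17 RPKM (SD, n = 3) in *Stat5b* line WT cells and 1579 ± 84 RPKM in *Stat5b* KI cells. In the *Stat5a* line these sums were 1107 ± 67 and 1567 ± 83 RPKM. At 0 hr the order was reversed, and the libraries did not overlap. The *Stat5b* line had 1158 to 1298 RPKM in WT cells and 953.8 to 1016 RPKM in KI cells. The *Stat5a* line had 932 to 1164 RPKM in WT cells and 836.7 to 881.3 RPKM in KI cells. Markers of other cells were also present. At 0 hr the 7 B cell markers summed to 56.6 ± 3.9 RPKM in *Stat5b* line WT cells and 219.5 ± 3.5 RPKM in *Stat5b* KI cells, with all 7 called higher (adjusted p of at most 0.05 and at least 2-fold, a call made for 7.38% of all genes in that direction). In the *Stat5a* line at 0 hr 2 of the 7 were called higher (0.861% of all genes). At 48 hr all 7 were called higher in both lines, as were 10 of 11 myeloid and all 7 erythroid markers in the *Stat5b* line (16.5% of all genes) and 7 of 11 myeloid markers in the *Stat5a* line (6.35%). The erythroid list holds globin genes with equal or nearly equal fold changes. Its 7 markers are thus not 7 separate measurements, and its sum repeats part of the signal. In the *Stat5b* line at 48 hr the B cell markers summed to 12.5 ± 1.2 RPKM in WT cells and 123.2 ± 2.9 RPKM in KI cells, led by *Cd79b* at 6.18 RPKM and *Cd79a* at 44.8 RPKM. In these cells the 11 myeloid markers found in the files summed to 21.4 ± 2.7 and 107.9 ± 23 RPKM, the 7 erythroid markers to 7.92 ± 2.6 and 213 ± 64 RPKM, and the 3 CD4 T cell markers to 1.45 ± 0.31 and 13.5 ± 0.11 RPKM. At 0 hr in the *Stat5b* line the mean myeloid sum was 54.5 RPKM in WT cells and 183.5 RPKM in KI cells. The mean erythroid sum was 88.6 and 825.7 RPKM. For *Stat5a* at 48 hr, the B cell sum was 27.6 ± 13 RPKM in WT cells and 108.5 ± 10 RPKM in KI cells, and the myeloid sum was 27.2 ± 7.5 and 67 ± 28 RPKM. The erythroid sum was 9.47 and 25.4 RPKM and the CD4 T cell sum 2.69 and 9.20 RPKM in these cells. No erythroid marker was called in the *Stat5a* line at 48 hr (adjusted p of at least 0.072). At 48 hr the macrophage marker *Vsig4* was at 0 in WT cells of both lines and in *Stat5a* KI cells. The 4 NK markers summed to 382 ± 8.4 and 289 ± 48 RPKM in the *Stat5b* line, nearly all of it *Nkg7*, which CD8 T cells also express. *Nkg7* alone had 372.4 RPKM in WT cells and 276.2 RPKM in KI cells, so the lower sum is that of *Nkg7*. It was not called (log2 fold change -0.51 ± 0.16, SE). The other NK markers went both ways. *Ncr1* (2.05 ± 0.36) and *Klra8* (1.04 ± 0.36) were called higher (16.5% of all genes) and *Klrb1c* (-1.38 ± 0.21) lower (9.81%). The part of these other cells in the differences between KI and WT cells and in the responses to IL-2 was not tested. In bulk RNA, fewer cells of a type and less RNA per cell cannot be told apart.

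The KI alleles differ from WT by point changes, so the level of *Stat5a* or *Stat5b* RNA is no check of the genotype labels. *Stat5b* stood at 28.3, 29.7 and 29.5 RPKM in *Stat5b* line WT cells at 0 hr and at 26.8, 27.2 and 27.0 RPKM in *Stat5b* KI cells. *Stat5a* stood at 19.5, 19.0 and 20.5 RPKM in *Stat5a* line WT cells at 0 hr and at 17.9, 20.6 and 21.5 RPKM in *Stat5a* KI cells. Neither passed the test between KI and WT cells at 0 hr in either line (adjusted p of at least 0.29), although the *Stat5b* values of the *Stat5b* line did not overlap. After IL-2, *Stat5b* was higher in KI cells of the *Stat5b* line at 24 hr (log2 FC 0.37 ± 0.11, adjusted p = 0.0058) and 48 hr (20.9, 21.1 and 21.8 RPKM in WT and 33.2, 31.5 and 28.6 RPKM in KI cells, 0.47 ± 0.11, adjusted p = 0.00053), and of the *Stat5a* line at 48 hr (0.33 ± 0.11, adjusted p = 0.016). *Stat5a* was higher in *Stat5b* KI cells at 4 hr (0.34 ± 0.08, adjusted p = 0.00082). A pair of libraries stood apart. Replicate 2 of WT cells in the *Stat5a* line, 4 hr, had the fewest reads of the 47 libraries, and 44.9% of its mapped reads fell on the longest transcripts, against a median of 75.3%. Replicate 3 of WT cells in that line, 0 hr, held 20.3 RPKM of *Myc*, against 43.2 and 53.5 RPKM in replicates 1 and 2.

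The order of the members by level differed between the groups. In *Stat5b* line WT cells at 0 hr the order by RPKM was *Max* (38.4), *Mxd4* (27.1), *Myc* (20.6) and *Mxd1* (20.6), *Mnt* (17.2), *Mlx* (13.4), *Mga* (9.82), *Mxi1* (3.55), *Mxd3* (0.944) and *Mycn* (0.0444). The libraries of *Myc* and *Mxd1* overlapped, and all other neighbours in this order did not. At 48 hr the order was *Myc* (92.7), *Max* (56.8), *Mlx* (21.9) and *Mxd3* (21.3), *Mnt* (9.31), *Mga* (8.47), *Mxd4* (3.76), *Mxd1* (3.67) and *Mycn* (3.67), and *Mxi1* (1.40). *Mlx* overlapped *Mxd3*, and *Mxd4*, *Mxd1* and *Mycn* overlapped each other. *Stat5b* KI cells at 48 hr kept *Max* on top (49.8 RPKM), ahead of *Myc* (42.5 RPKM) and *Mxd4* (22.6 RPKM). At 0 hr in the *Stat5a* line, *Myc* (39.0 ± 17 RPKM, SD, n = 3) stood beside *Max* (39.4 RPKM) in WT cells, and *Myc* (53.6 RPKM) stood above *Max* (37.4 RPKM) in KI cells.

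**Figure D1:**
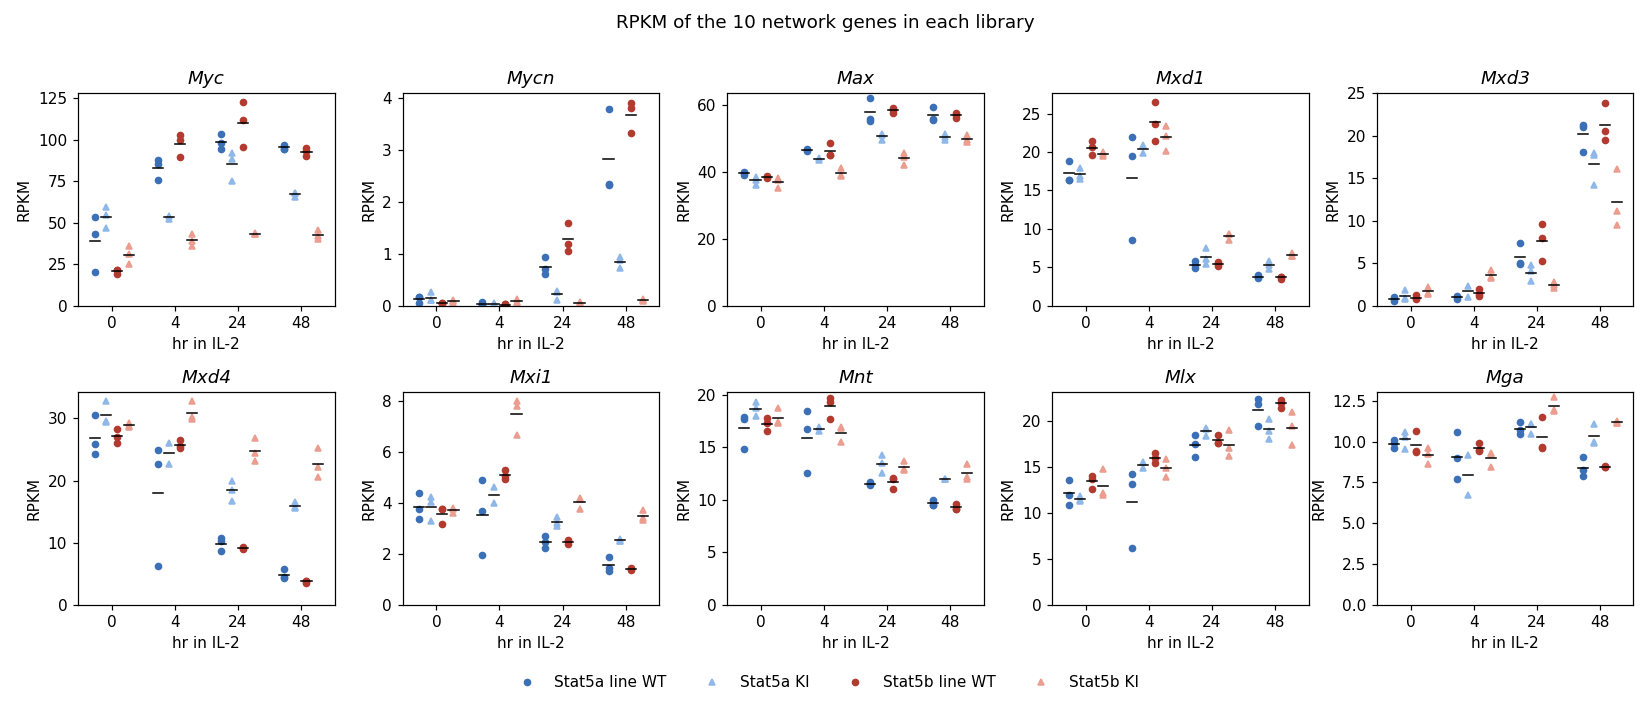
RPKM of each of the 10 network genes (y axes, linear, from 0) in each library by hr in IL-2 (x axes); circles are WT libraries and triangles KI libraries of the *Stat5a* line (blue) and the *Stat5b* line (red), and black lines are group means. *Mxd4* in *Stat5b* KI cells stays between 20.6 and 32.8 RPKM at all times, while the WT libraries of the same line lie between 3.56 and 3.89 RPKM at 48 hr.

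The promoters of several members hold the sequence that the network binds. The RefSeq table of promoters (GRCm38.p6, 250 bases before to 50 after the start) has 11 entries for 9 of the 10 members, without *Myc*. The E-box CACGTG, the same on both strands, was found in 4 of the 9 members, *Max*, *Mxd4*, *Mnt* and *Mlx*, and in 7.15% of all 32851 promoters. The 30 bases around each are shown because *Mxd4* is the repressor with the largest KI effect and the other 3 members carry the same word, with the E-box in capitals, 5′ to 3′ on the strand of the gene. *Mxd4* is at chr5:34187912-34187941 (minus strand), *Mnt* at chr11:74830789-74830818 (plus), *Mlx* at chr11:101087238-101087267 (plus) and *Max* at chr12:76962234-76962263 (minus). No RefSeq gene covers the *Mxd4* stretch, those of *Mnt* and *Mlx* lie in or at an exon of a predicted transcript of the same gene, and that of *Max* spans its start.
Mxd4: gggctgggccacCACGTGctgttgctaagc
Mnt: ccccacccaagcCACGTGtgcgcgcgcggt
Mlx: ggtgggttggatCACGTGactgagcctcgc
Max: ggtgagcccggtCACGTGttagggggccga

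The *Mycn* promoter holds no CACGTG. It holds the E2F-type word TTTGGCGC at 2 places, positions -183 and -168 from the start, and this word occurs on either strand in 0.514% of all promoters. The stretch at chr12:12941993-12942022 (minus strand) is shown because *Mycn* had the largest rise and the largest KI effect of the network, with the words in capitals.
Mycn: gctTTTGGCGCgaaaggcTTTGGCGCctcc

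The first of these overlaps TTTCGCGC on the other strand, a word in 0.323% of promoters. The variant E-box CACGCG, in 9.27% of promoters on either strand, was found in *Mga* alone. TTTCCCGC (1.07% of promoters) and the STAT word TTCNNNGAA (8.3%) were found in none of the 11 windows, which says only that these letters are not there.

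*Myc*, the activator of the network, rose within 4 hr of IL-2 in WT cells of both lines. In the *Stat5b* line, *Myc* went from 21.7, 19.1 and 21.2 RPKM at 0 hr to 89.4, 102 and 99.5 RPKM at 4 hr, 112.05, 122.86 and 95.26 RPKM at 24 hr and 93.0, 90.1 and 94.8 RPKM at 48 hr. Every WT library with IL-2 was above every WT library at 0 hr. The log2 fold change (FC) was 2.06 ± 0.18 (SE) at 4 hr, 2.23 ± 0.18 at 24 hr and 1.99 ± 0.18 (adjusted p = 3.1e-12) at 48 hr. In the *Stat5a* line the rise started from a higher and more scattered level, with 43.2, 53.5 and 20.3 RPKM at 0 hr, and led to 85.2, 75.6 and 87.6 RPKM at 4 hr and 94.2, 96.9 and 94.6 RPKM at 48 hr. The groups did not overlap. The log2 FC was 1.15 ± 0.18 at 4 hr (adjusted p = 8.1e-07), 1.16 ± 0.18 at 24 hr and 1.08 ± 0.18 at 48 hr. Without replicate 3 at 0 hr these became 0.89, 0.87 and 0.84, all below the 2-fold threshold, and without replicate 2 at 4 hr the first became 0.97.

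In *Stat5b* KI cells no response of *Myc* to IL-2 passed the test, with a log2 FC of 0.13, 0.34 and 0.28 at 4, 24 and 48 hr. These cells had 31.2, 35.7 and 25.2 RPKM at 0 hr, 43.0, 39.2 and 35.9 RPKM at 4 hr, 42.9, 43.0 and 43.7 RPKM at 24 hr and 45.4, 42.0 and 40.2 RPKM at 48 hr. At each time with IL-2 the KI libraries lay below all WT libraries, whereas at 0 hr they lay above them. Against WT cells, *Myc* was lower, with a log2 FC of -1.42 ± 0.18 at 4 hr (adjusted p = 1.8e-07), -1.38 ± 0.18 at 24 hr and -1.20 ± 0.18 at 48 hr (adjusted p = 2.8e-07). At 0 hr *Myc* was higher in *Stat5b* KI cells (log2 FC 0.51 ± 0.18, adjusted p = 0.033), but the adjusted p passed 0.05 in 5 of the 6 fits that left out 1 library, up to 0.17 without KI replicate 2. The response to IL-2 itself was smaller in KI cells than in WT cells, with a difference in log2 FC of -1.93 ± 0.25 at 4 hr (adjusted p = 4.5e-06), -1.89 ± 0.25 at 24 hr and -1.71 ± 0.25 at 48 hr.

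*Stat5a* KI cells had 59.4, 54.6 and 46.8 RPKM of *Myc* at 0 hr, 52.2 and 54.3 RPKM at 4 hr, 75.2, 91.8 and 88.3 RPKM at 24 hr and 65.4, 67.7 and 67.7 RPKM at 48 hr. The KI libraries at 24 hr lay just under the WT libraries of 98.05, 94.5 and 103 RPKM. Against 0 hr, *Myc* passed the test in KI cells at 24 hr alone (log2 FC 0.45 ± 0.17, adjusted p = 0.026), and 3 of the 6 fits without 1 library lost it. The KI against WT log2 FC was -0.96 ± 0.20 at 4 hr (adjusted p = 0.0015), -0.56 ± 0.17 at 48 hr (adjusted p = 0.0087) and did not pass the test at 24 hr (-0.28 ± 0.17, adjusted p = 0.3). The 4 hr value was -0.77 without WT replicate 2. It did not pass the test without KI replicate 1, which leaves a single KI library. The 4 hr value was past 2-fold without WT replicate 1 (-1.10) or 3 (-1.08), by DESeq2 (-1.03) and with the replicate block (-1.01). The difference of the responses was -1.39 ± 0.27 at 4 hr (adjusted p = 0.0056) and -0.99 ± 0.25 at 48 hr (adjusted p = 0.0024). Without WT replicate 2 at 4 hr the first was -1.21 (adjusted p = 0.015), and without WT replicate 3 at 0 hr the values were -1.10 and -0.71. The 4 hr difference lost the call without KI replicate 1 (log2 -1.32, adjusted p = 0.11), which leaves a single KI library at 4 hr.

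*Mycn*, a paralog of *Myc* better known from embryonic and neural cells, was scarce at rest and rose late. In *Stat5b* line WT cells it had 8, 4 and 7 reads at 0 hr and 4, 1 and 4 reads at 4 hr, then 193, 242 and 159 reads at 24 hr and 619, 590 and 463 reads at 48 hr, which is 3.81, 3.89 and 3.31 RPKM. The 24 and 48 hr libraries were above all earlier ones. The log2 FC against 0 hr was 4.63 ± 0.44 at 24 hr and 6.17 ± 0.45 at 48 hr (adjusted p = 7.2e-15). Over the other settings it ran from 1.12 to 4.70 at 24 hr and from 2.16 to 6.27 at 48 hr, and no setting lost the call. *Stat5b* KI cells had 15, 7 and 11 reads at 0 hr and 16, 16 and 12 reads at 48 hr, with 5 to 18 reads in every library between. None of their IL-2 responses passed the test, and against WT cells the log2 FC of *Mycn* was -4.60 ± 0.44 at 24 hr and -5.18 ± 0.41 at 48 hr (adjusted p = 1.8e-13). Over the other settings the KI against WT values ran from -4.64 to -1.11 and from -5.25 to -2.08, and no setting lost the call.

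In the *Stat5a* line *Mycn* rose to 0.609, 0.943 and 0.696 RPKM at 24 hr and to 2.32, 3.77 and 2.34 RPKM at 48 hr in WT cells, from 0.165, 0.168 and 0.0506 RPKM at 0 hr. *Stat5a* KI cells reached 0.720, 0.873 and 0.929 RPKM at 48 hr, a rise of 2.24 ± 0.38 on the log2 scale (adjusted p = 4e-06), and stayed under all WT libraries. The KI against WT log2 FC was -1.81 ± 0.37 at 24 hr (adjusted p = 0.00056) and -1.78 ± 0.33 at 48 hr (adjusted p = 3.4e-05). By limma on log2(RPKM + 1), a scale that understates changes of low genes, the 24 hr value of *Mycn* was -0.52 and lost the call, and with all 48 libraries both lost the call at an unreduced log2 FC of -1.84 (adjusted p = 0.23 and 0.093). At 4 hr the calls of *Mycn* rest on few reads. *Stat5a* line cells had 25, 26 and 11 reads at 0 hr and 10, 1 and 1 reads at 4 hr in WT cells, and 27, 17 and 13 reads and then 7 and 4 reads in KI cells. *Mycn* was called lower at 4 hr in both (log2 FC -2.07 ± 0.55 in WT cells and -2.29 ± 0.59 in KI cells). By limma on log2(RPKM + 0.1) the values were -0.82 and -0.86, both below 2-fold. With all 48 libraries the KI value turned to 1.91. The WT value was -3.68, -1.90 and -1.44 without replicate 1, 2 and 3 at 4 hr and -2.46 without replicate 3 at 0 hr, and 1 WT library at 0 hr (0.0506 RPKM) lay below 1 at 4 hr (0.0652 RPKM). The call of higher *Mycn* in *Stat5b* KI cells at 4 hr (8, 18 and 11 against 4, 1 and 4 reads, log2 FC 1.89 ± 0.61) was lost without WT replicate 2 or KI replicate 2 (log2 1.48 and 1.57, adjusted p = 0.11 in both).

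*Max*, the shared partner, stayed between 35.1 and 62.1 RPKM over the 47 libraries. In *Stat5b* line WT cells it had 38.4, 38.7 and 38.2 RPKM at 0 hr and 56.0, 57.0 and 57.4 RPKM at 48 hr, and in *Stat5b* KI cells 35.1, 37.5 and 38.0 RPKM and then 49.5, 48.9 and 50.9 RPKM. The WT libraries at 48 hr lay above the KI libraries. The fitted rise was smaller than the RPKM ratio, with a log2 FC of 0.39 ± 0.09 in WT cells (adjusted p = 0.00029), where the fit scales the counted reads by TMM and RPKM scales to all mapped reads. The KI against WT log2 FC of *Max* passed the test at 4, 24 and 48 hr in both lines, with -0.34, -0.43 and -0.27 in the *Stat5b* line and -0.42, -0.26 and -0.22 in the *Stat5a* line. Those of the *Stat5a* line were each lost in some fits without 1 library. The highest adjusted p was 0.12 at 4 hr (without KI replicate 1), 0.22 at 24 hr (without WT replicate 2) and 0.073 at 48 hr (without WT replicate 2), and without WT replicate 2 the 4 hr value was -0.16 (adjusted p = 0.051). In the *Stat5b* line the 4 hr difference was lost without KI replicate 1 (adjusted p = 0.063).

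Among the MXD genes, *Mxd1*, *Mxd4* and *Mxi1* were called lower and *Mxd3* higher at 48 hr of IL-2 in WT cells of both lines. *Mxd4* encodes MAD4, a MAX partner that recruits co-repressors. It fell from 26.1, 28.3 and 27.0 RPKM at 0 hr to 9.37, 9.02 and 9.15 RPKM at 24 hr and 3.89, 3.56 and 3.83 RPKM at 48 hr in *Stat5b* line WT cells. The log2 FC at 48 hr was -3.03 ± 0.17 (adjusted p = 4.6e-18). *Stat5b* KI cells kept 28.6, 29.2 and 28.9 RPKM at 0 hr, 30.2, 32.8 and 29.8 RPKM at 4 hr, 24.4, 23.2 and 26.8 RPKM at 24 hr and 25.2, 22.1 and 20.6 RPKM at 48 hr. Every KI library at 24 and 48 hr was above every WT library. Among the members, *Mxd4* had the largest rise in KI against WT cells at 48 hr, with a log2 FC of 2.51 ± 0.17 (adjusted p = 2.4e-15), after 1.40 ± 0.16 at 24 hr.

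In the *Stat5a* line *Mxd4* fell from 30.6, 24.3 and 25.9 RPKM to 5.77, 4.34 and 4.40 RPKM by 48 hr in WT cells and from 29.4, 29.6 and 32.8 RPKM to 15.6, 16.5 and 15.8 RPKM in KI cells. No KI library overlapped a WT library at 48 hr. The KI against WT log2 FC was 0.84 ± 0.16 at 24 hr (adjusted p = 0.00026) and 1.67 ± 0.16 at 48 hr (adjusted p = 3e-10), and the difference of the responses at 48 hr was 1.50 ± 0.22 (*Stat5a* line) and 2.48 ± 0.22 (*Stat5b* line).

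*Mxd1*, which encodes MAD1, fell in all 4 series of cells. It went from 20.6, 19.6 and 21.5 RPKM to 3.53, 3.75 and 3.75 RPKM at 48 hr in *Stat5b* line WT cells (log2 FC -2.66 ± 0.11) and from 20.0, 19.5 and 19.7 RPKM to 6.87, 6.46 and 6.51 RPKM in *Stat5b* KI cells (log2 FC -1.77 ± 0.11). The KI libraries were above the WT libraries at 24 and 48 hr. *Mxd1* was thus higher in *Stat5b* KI cells by 0.72 ± 0.11 at 24 hr and 0.77 ± 0.11 at 48 hr (adjusted p = 8.6e-08), and in *Stat5a* KI cells by 0.44 ± 0.11 at 48 hr (adjusted p = 0.0009).

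*Mxi1*, which encodes the MAX interactor MXI1, was low, with 1.34 to 8.02 RPKM. In *Stat5b* line WT cells it had 3.74, 3.74 and 3.18 RPKM at 0 hr and 1.44, 1.37 and 1.39 RPKM at 48 hr (log2 FC -1.52 ± 0.12), while *Stat5b* KI cells had 3.77, 3.79 and 3.60 RPKM at 0 hr and 3.73, 3.33 and 3.41 RPKM at 48 hr. The KI libraries at 48 hr overlapped those at 0 hr, and the KI response (-0.28 ± 0.12, adjusted p = 0.047) was lost in all 6 fits without 1 library. The KI against WT log2 FC was 1.24 ± 0.12 at 48 hr (adjusted p = 5.8e-11) and 0.64 ± 0.12 in the *Stat5a* line (adjusted p = 4.7e-05). By limma on log2(RPKM + 1) the first was 0.90 and the fall in *Stat5b* line WT cells -0.92, both below 2-fold. At 4 hr *Mxi1* was higher than at 0 hr in both genotypes of the *Stat5b* line. It had 5.07, 4.93 and 5.28 RPKM in WT cells (log2 FC 0.34 ± 0.12, adjusted p = 0.016, and 0.078 without replicate 3 at 0 hr) and 8.02, 7.81 and 6.67 RPKM in KI cells (0.79 ± 0.12, adjusted p = 9.5e-07). The difference of these responses did not pass the test (0.44 ± 0.17, adjusted p = 0.25).

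*Mnt*, the MAX partner found in most cell types, fell in every series as well. Its libraries went from 17.3, 16.6 and 17.8 RPKM to 9.15, 9.15 and 9.64 RPKM at 48 hr in *Stat5b* line WT cells (log2 FC -1.06 ± 0.07) and from 17.3, 18.7 and 17.4 RPKM to 13.5, 11.98 and 12.2 RPKM in *Stat5b* KI cells (log2 FC -0.70 ± 0.07). The WT value sits at the 2-fold threshold, and leaving out any of 5 libraries in the *Stat5b* line (log2 -0.96 to -0.99) or of 4 in the *Stat5a* line (-0.91 to -0.97) put it below. The call was also lost under 6 of 10 other settings in each line. At 48 hr *Mnt* was higher in KI cells by 0.35 ± 0.07 in the *Stat5b* line (adjusted p = 3.1e-05) and 0.26 ± 0.07 in the *Stat5a* line (adjusted p = 0.002), after being lower at 4 hr in the *Stat5b* line (-0.32 ± 0.07, adjusted p = 0.00044).

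*Mxd3*, whose product MAD3 is known from dividing cells in S phase, rose late like *Mycn* in WT cells. In *Stat5b* line WT cells it had 0.737, 0.904 and 1.19 RPKM at 0 hr, 5.28, 7.92 and 9.57 RPKM at 24 hr and 19.5, 20.5 and 23.9 RPKM at 48 hr. The log2 FC was 2.82 ± 0.29 at 24 hr and 4.32 ± 0.30 at 48 hr (adjusted p = 1.4e-15). *Stat5b* KI cells had 2.04, 2.79 and 2.38 RPKM at 24 hr and 11.2, 16.1 and 9.47 RPKM at 48 hr, below all WT libraries at both times. Their log2 FC against 0 hr was 0.35 at 24 hr, which did not pass the test, and 2.66 ± 0.28 at 48 hr. At 4 hr these KI libraries (3.36, 4.16 and 3.25 RPKM) lay above those at 0 hr (1.49, 2.18 and 1.41 RPKM) and at 24 hr. This 4 hr response was not called. Its log2 FC was 1.08 without KI replicate 2 at 0 hr and 1.06 by limma on log2(RPKM + 0.1), both past 2-fold. The KI against WT log2 FC of *Mxd3* was -1.68 ± 0.27 at 24 hr (adjusted p = 1.8e-06) and -0.87 ± 0.25 at 48 hr (adjusted p = 0.0025), and the latter was -1.16 without KI replicate 2. At 4 hr it was higher in KI cells, at 3.36, 4.16 and 3.25 against 1.15, 1.32 and 1.98 RPKM (log2 FC 1.17 ± 0.28, adjusted p = 0.0013), and the value was 0.89, below 2-fold, by limma on log2(RPKM + 1). *Mxd3* in the *Stat5a* line rose to 21.3, 21.1 and 18.1 RPKM in WT cells and 17.8, 18.0 and 14.2 RPKM in KI cells at 48 hr, and no KI against WT difference passed the test.

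*Mlx* and *Mga* moved little. *Mlx*, the MAX-like partner, rose in *Stat5b* line WT cells from 12.6, 14.0 and 13.7 RPKM to 22.3, 21.4 and 22.0 RPKM at 48 hr (log2 FC 0.53 ± 0.09), and in *Stat5b* KI cells from 12.1, 14.8 and 11.999 RPKM to 20.9, 19.5 and 17.3 RPKM (0.38 ± 0.09). Its KI against WT difference passed the test once, at 48 hr in the *Stat5b* line (log2 FC -0.27 ± 0.09, adjusted p = 0.009). *Mlx* lies on chromosome 11 at chr11:101086707-101092207 (GRCm38.p6), 227703 bases from *Stat5b* and 201538 bases from *Stat5a*, the edited genes. *Mga*, the scaffold of a repressor complex, had 10.6, 9.42 and 9.39 RPKM at 0 hr and 8.45, 8.45 and 8.50 RPKM at 48 hr in *Stat5b* line WT cells (log2 FC -0.39 ± 0.10, lost without replicate 1 at 0 hr with an adjusted p of 0.068), and 8.63, 9.25 and 9.62 RPKM and then 11.2, 11.1 and 11.3 RPKM in *Stat5b* KI cells. The last difference gave a KI against WT log2 FC of 0.32 ± 0.10 at 48 hr (adjusted p = 0.0041, and 0.054 without KI replicate 3). *Mga* was lower in *Stat5a* KI cells at 4 hr (log2 FC -0.49 ± 0.11, adjusted p = 0.0025). It was -0.37 without WT replicate 2 (adjusted p = 0.022) and was lost without KI replicate 1 (adjusted p = 0.24).

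**Figure D2:**
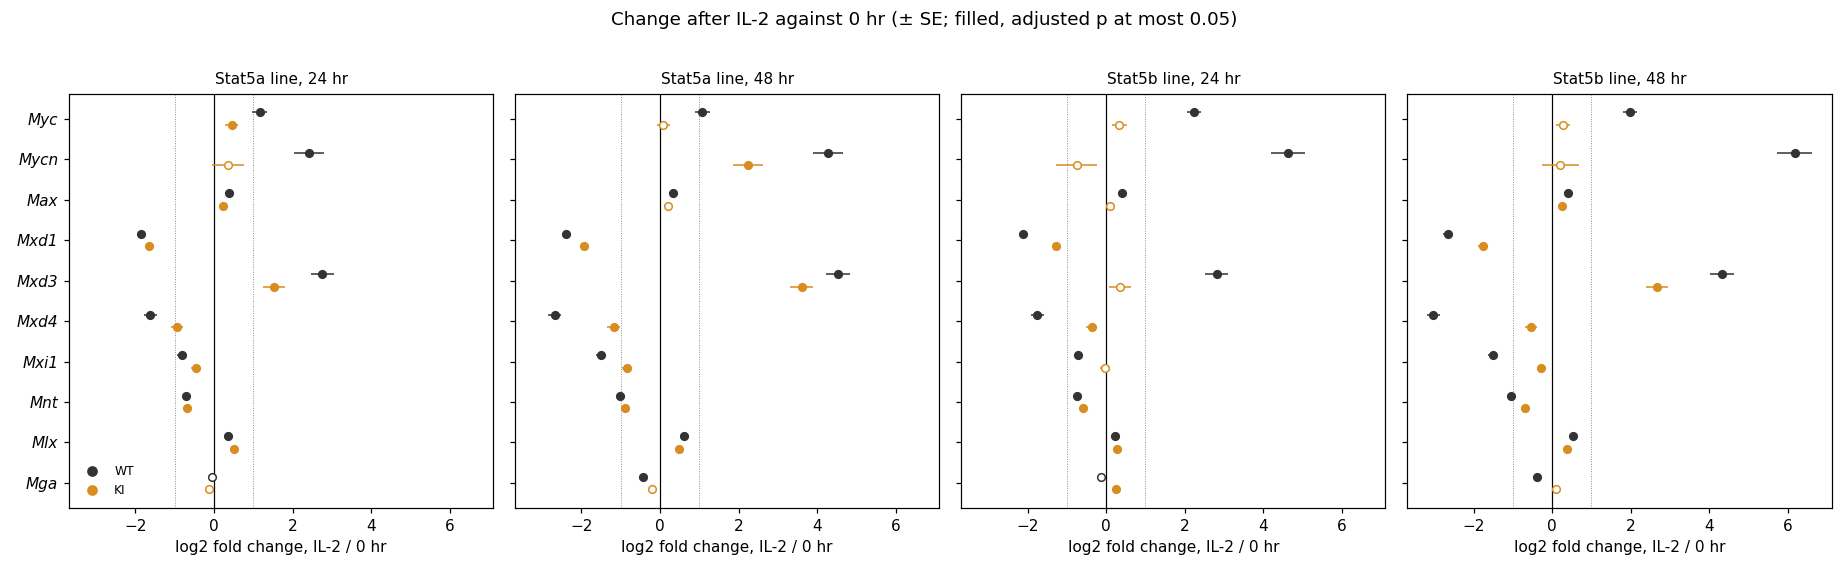
Log2 fold change of IL-2 against 0 hr (x axes) for each network gene (rows) at 24 and 48 hr in the *Stat5a* line (left pair) and the *Stat5b* line (right pair); black points are WT cells and orange points KI cells, bars are ± SE, filled points have an adjusted p of at most 0.05, and dotted lines mark 2-fold. In the *Stat5b* line at 48 hr *Mxd4* fell by 3.03 in WT cells and by 0.55 in KI cells.

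Counts over the network were read against those over all genes. A member was called at an adjusted p of 0.05 or less together with a change of at least 2-fold. At 4 hr of IL-2, 1 of 10 members was called in *Stat5b* line WT cells (*Myc*) and 2 of 10 in *Stat5a* line WT cells (*Myc* and *Mycn*), where 15.7% and 21.4% of all genes tested were called. At 48 hr, 7 of 10 members were called in *Stat5b* line WT cells and 7 of 10 in *Stat5a* line WT cells, where 35.3% and 36.6% of all genes tested were called. *Myc*, *Mycn* and *Mxd3* rose and *Mxd1*, *Mxd4*, *Mxi1* and *Mnt* fell in both. Of the members with CACGTG in the promoter, *Mxd4* and *Mnt* fell, and *Mlx* and *Max* passed the test as higher. At 24 hr, 5 of 10 were called in each line against 22.5% and 22.9% of all genes. In *Stat5a* KI cells 1 of 10 was called at 4 hr (*Mycn*, with 17.8% of all genes) and 2 of 10 at 24 hr (*Mxd1* and *Mxd3*, with 21.1%). In *Stat5b* KI cells edgeR and DESeq2 each called 0 of 10 at 4 hr (13.8% of all genes by edgeR), where 4 had an unadjusted p under 0.05, and edgeR called 1 of 10 at 24 hr (*Mxd1*, with 15.8%). In KI cells at 48 hr, 4 of 10 were called in the *Stat5a* line (*Mycn* and *Mxd3* higher, *Mxd1* and *Mxd4* lower) and 2 of 10 in the *Stat5b* line (*Mxd3* higher, *Mxd1* lower), where 26% and 18.8% of all genes were called.

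Between KI and WT cells, no member was called at 0 hr in either line, where the share of all genes called was 1.04% (*Stat5a*) and 7.98% (*Stat5b*). By edgeR, 1 of 10 members in the former and 2 of 10 in the latter had an unadjusted p under 0.05 at 0 hr, and DESeq2 called none. At 4 hr, 0 of 10 were called by edgeR in the *Stat5a* line (6.63% of all genes), where 4 had an unadjusted p under 0.05 and DESeq2 called 1, and 3 of 10 in the *Stat5b* line (10.4%), at 24 hr 1 of 10 (4.45%) and 4 of 10 (16.7%), and at 48 hr 2 of 10 (8.78%) and 4 of 10 (26.3%). The members called at 48 hr were *Mycn*, lower, and *Mxd4*, higher, in both lines, with *Myc*, lower, and *Mxi1*, higher, in the *Stat5b* line. With the adjusted p alone, all 10 members differed at 48 hr in the *Stat5b* line, where 63.6% of all genes did, and 8 of 10 in the *Stat5a* line, where 44.3% did. The median log2 FC of the 10 members in the *Stat5b* line at 48 hr was 0.02, beside 0.10 over all genes tested.

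**Figure D3:**
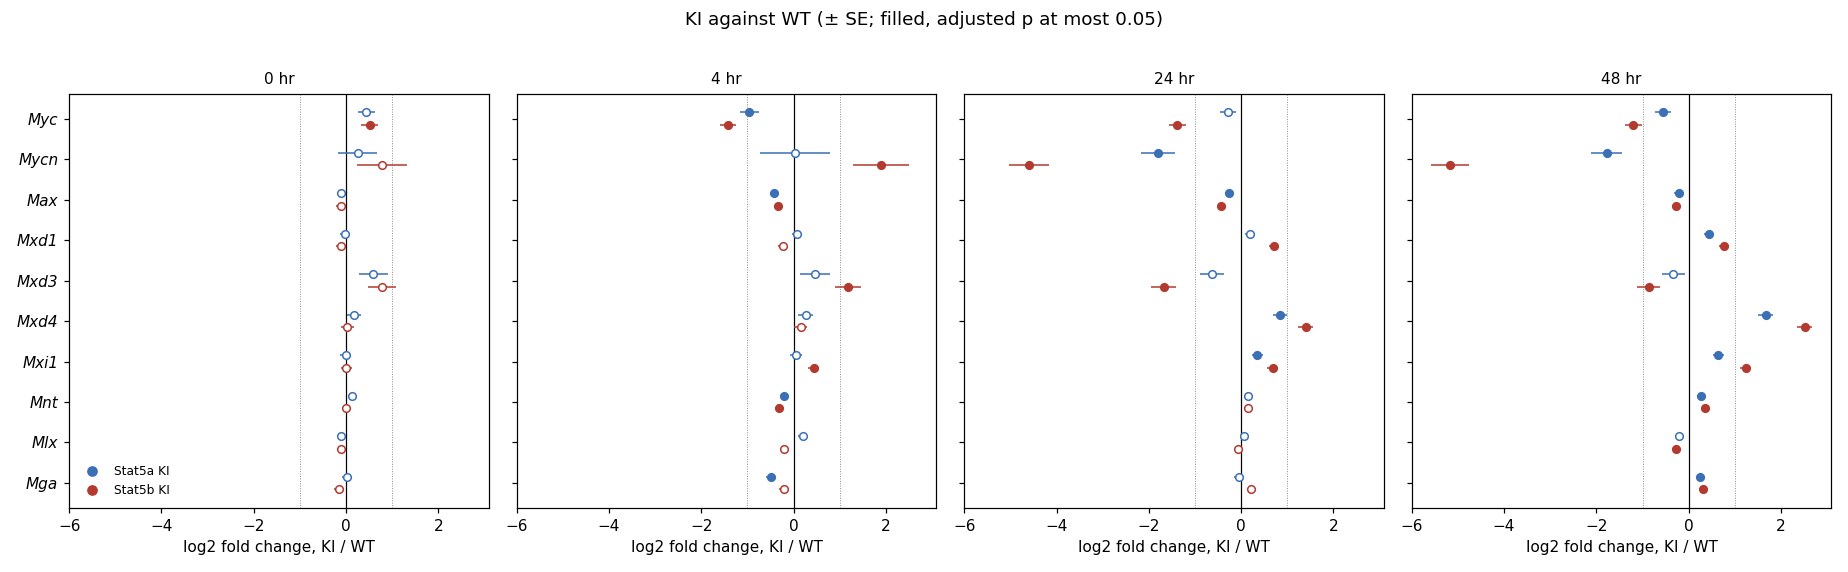
Log2 fold change of KI against WT (x axes) for each network gene (rows) at each of the times 0, 4, 24 and 48 hr; blue points are the *Stat5a* line and red points the *Stat5b* line, bars are ± SE, filled points have an adjusted p of at most 0.05, and dotted lines mark 2-fold. At 48 hr *Mycn* lies at -1.78 (*Stat5a* line) and -5.18 (*Stat5b* line), and *Mxd4* at 1.67 and 2.51.

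Whether both KI lines moved the network alike was tested as the difference of their KI effects. The effect on *Mycn* was more negative in the *Stat5b* line, by a log2 difference of -2.79 ± 0.57 at 24 hr (adjusted p = 0.00069) and -3.39 ± 0.51 at 48 hr (adjusted p = 4.2e-05). By limma on log2(RPKM + 1) these *Mycn* values were -0.59, which lost the call, and -1.04, and with all 48 libraries both lost it at -2.78 and -3.41 (adjusted p = 0.3 and 0.15). More negative too was that on *Myc* at 24 hr (-1.10 ± 0.25, adjusted p = 0.0018), a difference that became -0.99 without *Stat5b* line WT replicate 2 and -1.09 with all 48 libraries (adjusted p = 0.056), and that at 48 hr did not pass the test (-0.64 ± 0.25, adjusted p = 0.088). The effect on *Mxd4* was more positive at 48 hr (0.84 ± 0.23, adjusted p = 0.013, and 0.072 without *Stat5a* line WT replicate 1) and so was that on *Mxi1* (0.60 ± 0.17, adjusted p = 0.02, and 0.10 without *Stat5a* line WT replicate 3). At 0 and 4 hr edgeR and DESeq2 called 0 of 10 members in this difference (edgeR called 0.0964% and 4.72% of all genes), with 0 and 3 at an unadjusted p under 0.05. At 24 hr 2 of 10 members were called and at 48 hr 1 of 10, where 2.65% and 2.06% of all genes were called. The difference of the IL-2 responses between KI and WT cells of the *Stat5b* line was called for 5 of 10 members at 48 hr (*Myc*, *Mycn*, *Mxd3*, *Mxd4* and *Mxi1*), where 21.4% of all genes were called, and in the *Stat5a* line for 2 of 10 (*Mycn* and *Mxd4*), where 6.25% were. At 24 hr it was called for 4 of 10 in the *Stat5b* line (10.2% of all genes) and for *Mycn* in the *Stat5a* line (1.59%), and at 4 hr for *Myc* alone in each line (0.61% and 0.34%). The 24 hr call of *Mycn* in the *Stat5a* line was lost in 4 of 12 fits without 1 library and under 4 of 10 other settings. These comparisons share their libraries and are not independent of each other.

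The balance of activators and repressors can be read from summed RPKM, as a description of transcripts and not of proteins. *Myc* and *Mycn* together had 0.298 ± 0.020 (SD, n = 3) of the summed RPKM of *Mxd1*, *Mxd3*, *Mxd4*, *Mxi1* and *Mnt* at 0 hr in *Stat5b* line WT cells, 1.30 ± 0.13 at 4 hr, 3.07 ± 0.434 at 24 hr and 2.45 ± 0.14 at 48 hr. In *Stat5b* KI cells the ratio was 0.428 ± 0.067, 0.491 ± 0.038, 0.809 ± 0.030 and 0.743 ± 0.036. It crossed 1 in no *Stat5b* KI group. The ratio at 48 hr in the *Stat5a* line was 2.46 ± 0.15 in WT cells and 1.30 ± 0.084 in KI cells, and the libraries of the groups did not overlap. Within the repressor sum, *Mxd3* made up 21.3 of 39.4 RPKM at 48 hr in the *Stat5b* line in WT cells and 0.944 of 69.4 RPKM at 0 hr, whereas *Mxd4* made up 22.6 of 57.5 RPKM in *Stat5b* KI cells at 48 hr.

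**Figure D4:**
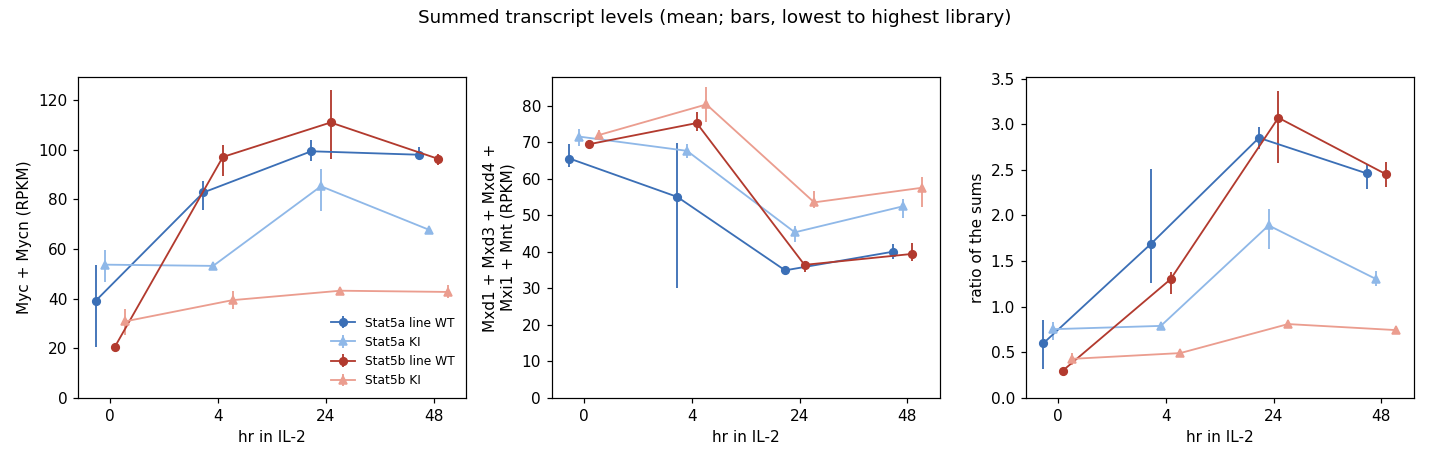
Summed RPKM of *Myc* and *Mycn* (left), of *Mxd1*, *Mxd3*, *Mxd4*, *Mxi1* and *Mnt* (middle) and the ratio of the sums (right) by hr in IL-2; points are means of the 4 series and bars run from the lowest to the highest library. The ratio stays between 0.355 and 0.827 in the *Stat5b* KI libraries and reaches 2.31 to 2.58 in the WT libraries of that line at 48 hr.

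Genes that work with the network were read from 7 lists of partners and targets. Of 30 genes known to be activated by MYC, 25 were called higher in *Stat5b* line WT cells at 48 hr of IL-2, and 23 in *Stat5a* line WT cells, where 14.6% and 14.3% of all genes were called higher. At 4 hr, when *Myc* had already risen, 5 of the 30 passed the test as higher and 16 as lower in the *Stat5b* line (25.1% and 24.5% of all genes). In the *Stat5a* line 6 passed as higher and 14 as lower (29.5% and 28.9%). In KI against WT cells at 48 hr, 27 of 30 were called lower in the *Stat5b* line (9.81% of all genes) with a median log2 FC of -1.47, and 9 of 30 in the *Stat5a* line (2.43%) with a median of -0.86, beside medians of 0.10 and 0.04 over all genes. The largest falls were of *Slc7a5*, a transporter of large neutral amino acids (log2 FC -2.68 ± 0.12, adjusted p = 9e-20), *Hk2*, a hexokinase (-2.55 ± 0.17), and *Srm*, spermidine synthase (-2.29 ± 0.12). *Slc7a5* had 94.7, 99.6 and 90.0 RPKM in WT cells at 48 hr and 16.3, 16.8 and 13.8 RPKM in *Stat5b* KI cells, which is no higher than the 17.9, 22.8 and 17.6 RPKM of KI cells at 0 hr.

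Of 6 genes known to be repressed by MYC, 2 were called higher and 1 lower in *Stat5b* KI cells at 48 hr, where 16.5% and 9.81% of all genes were. *Cdkn1b*, an inhibitor of cyclin-dependent kinases, had 21.6, 24.0 and 21.8 RPKM in WT cells and 56.7, 55.8 and 66.8 RPKM in KI cells (log2 FC 1.34 ± 0.10), and *Gadd45a*, a stress-induced gene, was higher by 1.62 ± 0.16. *Cdkn1a*, another inhibitor of cyclin-dependent kinases, went the other way, with 8.43, 9.87 and 7.04 RPKM in WT cells and 2.73, 2.69 and 2.36 RPKM in KI cells (log2 FC -1.79 ± 0.22). In *Stat5a* KI cells the values were 0.59, 0.90 and -1.33.

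Of the 4 further paralogs, *Mycl* was called at 48 hr, both for IL-2 in *Stat5b* line WT cells (35.3% of all genes called in either direction) and as higher in *Stat5b* KI against WT cells (16.5% of all genes). *Mycl* fell in *Stat5b* line WT cells from 4.18, 4.53 and 5.46 RPKM to 0.0913, 0.0539 and 0.0956 RPKM at 48 hr (log2 FC -6.04), and stood at 1.22, 1.01 and 0.753 RPKM in *Stat5b* KI cells at 48 hr (KI against WT log2 FC 3.54 ± 0.40, adjusted p = 1.1e-09, and 2.25 in the *Stat5a* line). *Mycl* is also known from dendritic cells, and the myeloid markers were higher in the same KI libraries. In *Stat5b* line WT cells the myeloid sum also fell, from 54.5 RPKM at 0 hr to 21.4 RPKM at 48 hr. A single marker that did not pass the test made up 17.7 RPKM of the latter. The part of myeloid cells in the fall of *Mycl* was not tested. The other 3, among them *Bmyc* (log2 FC 0.15) and *Mlxipl* (0.16), did not pass the test between *Stat5b* KI and WT cells at 48 hr.

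Co-factors of the network were read from 4 further lists. Of 12 MYC co-activators, 8 passed the test as lower and 2 as higher in *Stat5b* KI cells at 48 hr (30.5% and 33.1% of all genes). Of these, 2 were called lower (9.81% of all genes), *Ruvbl1* (log2 FC -1.49 ± 0.09) and *Ruvbl2* (-1.40 ± 0.09), ATPases of chromatin remodelling complexes. Of 10 co-repressor genes of the SIN3 and NCOR complexes known to be used by MXD proteins, 6 passed as lower (30.5% of all genes). *Sap30* (-1.45 ± 0.12) and *Rbbp7* (-1.08 ± 0.09) were called lower (9.81% of all genes). *Mxd1*, *Mxd4* and *Mxi1* were higher and *Mxd3* was lower in the same cells. Of 8 genes of the MGA complex, 6 passed as lower and 1 as higher (30.5% and 33.1% of all genes). *Tfdp1*, the partner of E2F factors, was called lower (-1.69 ± 0.11, with 9.81% of all genes called lower). Of 10 genes of MYC turnover, 3 passed as higher and 4 as lower, near the shares of all genes (33.1% and 30.5%). In this list 3 were called lower (9.81% of all genes), among them *Aurka* (-1.71 ± 0.16) and *Skp2* (-1.24 ± 0.11). Both are also known as genes of cell division. The medians of these lists were -0.61, -0.58, -0.55 and 0.03, beside 0.10 over all genes.

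Finally, the genes whose pattern over the 16 group means was most like that of *Myc* and of *Mycn* were named. For *Myc* they included *Tnf*, a cytokine (Pearson's r 0.920, Spearman's rho 0.909), *Fam210a* (0.898, 0.891), *2610507B11Rik* (0.890, 0.859) and *Otud4* (0.883, 0.841). For *Mycn* they were *Umps*, of pyrimidine synthesis (0.981, 0.950), *Rfc3*, of the DNA replication clamp loader (0.980, 0.962), *Thop1*, a peptidase (0.978, 0.953), *Mthfd2*, of mitochondrial one-carbon metabolism (0.974, 0.947), and *Hspd1*, a mitochondrial chaperonin (0.973, 0.938). Of the members, *Max* was nearest to *Myc* (r 0.81, rho 0.82, rank 63 of 15565 genes by r). *Mxd3* was nearest to *Mycn* (r 0.82, rho 0.74), but at rank 1618. *Mxd1*, *Mxd4*, *Mxi1* and *Mnt* ran opposite to *Mycn* (r -0.84, -0.87, -0.89 and -0.78, rho -0.83, -0.61, -0.75 and -0.65). The points share libraries and depth, and the correlations are descriptions.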

How the data were processed

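The authors sequenced poly(A) RNA as 50-base single reads, mapped them to mm10 (GRCm38) and kept uniquely mapped reads. Per the labels the tools were TopHat2 2.0.11, Bowtie2 2.2.6, SAMtools 0.1.8 and bedtools 2.25.0. The deposited files give read counts and RPKM on RefSeq exons for each transcript. The counting program and its use of strand are not given in the sources used here.

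Counts of the longest transcript per symbol were tested with edgeR 4.0.16 (R 4.3.3), quasi-likelihood, TMM scaling and filterByExpr with a minimum count of 10, in 1 fit over 47 libraries and 16 groups, with Benjamini-Hochberg adjustment over 15566 genes. SE was derived from log2 FC and F. The outcome of a check of the test on simulated data is not given here, and no result rests on it. DESeq2 1.42.0, limma 3.58.1 on log2(RPKM + 1) and other settings were alternatives. The members and lists were chosen with earlier results of these data known. Named genes were all members, *Stat5a* and *Stat5b*, at most 3 of each list with the largest change in *Stat5b* KI against WT cells at 48 hr, and the 5 genes nearest to each of *Myc* and *Mycn* by Pearson's r over the 16 group means. Of the cell type markers, *Cd79a*, *Cd79b*, *Vsig4* and the NK markers are named outside this rule and were chosen after their values were seen. A few genes that met this rule are not reported here. Groups came from the labels. Among comparisons with 3 pairs, same-numbered libraries deviated together in every pair (r over 0.1) only between *Stat5a* line WT cells at 0 hr and those at 24 hr (r 0.225 to 0.434) or 48 hr (0.138 to 0.214). *Stat5a* KI cells at 4 hr and 0 hr form 2 pairs, both with r = 0.198. No pair of replicates agreed within sampling noise (chi-square per gene 4.834 or more over 46 pairs).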

Additional observations from a re-analysis of the deposited data

Results flagged for a closer look

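The KI effect differed between the lines for 7 results among the members, each by the test of the difference itself (edgeR, *Stat5b* minus *Stat5a* line, adjusted over all genes). At 4 hr it was *Mlx* (log2 -0.41 ± 0.13, adjusted p = 0.042), which was lost in 9 of 11 fits without 1 library and had an adjusted p of 0.16 without *Stat5a* line WT replicate 2, the library with the fewest reads. At 24 hr they were *Mxd1* (0.53 ± 0.15, adjusted p = 0.013, and 0.057 without *Stat5a* KI replicate 3), *Myc* (-1.10 ± 0.25, adjusted p = 0.0018) and *Mycn* (-2.79 ± 0.57, adjusted p = 0.00069). At 48 hr they were *Mxd4* (0.84 ± 0.23, adjusted p = 0.013), *Mxi1* (0.60 ± 0.17, adjusted p = 0.02) and *Mycn* (-3.39 ± 0.51, adjusted p = 4.2e-05). The B cell and myeloid marker sums also differed between KI and WT cells of both lines, as did the erythroid sum in the *Stat5b* line. In the *Stat5a* line the erythroid sums of KI and WT libraries overlapped at 0, 4 and 24 hr, and no erythroid marker was called at 48 hr. The part of these markers' cells in the differences between the lines was not tested.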

How the results depend on the processing

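Of 300 member results, 68 were called, of which 44 kept the call under every alternative and 59 in every fit without 1 library. With the adjusted p alone in place of the fold threshold, the members called went from 27 to 44 for IL-2 in WT cells, 10 to 35 in KI cells, 14 to 40 for KI against WT, 14 to 23 for the difference of the responses and 3 to 7 for the difference between the lines. With all 48 libraries the last count was 1, and 5 results of single genes turned their direction, namely *Mycn* in *Stat5a* KI cells at 4 hr against 0 hr (1.91), and *Mga* in the same comparison (2.14), in *Stat5a* KI against WT cells at 4 hr (2.17), in the *Stat5a* response difference (2.15) and in the line difference at 4 hr (-2.35). The library added there held 1028515 reads. By Spearman's rho, 3 of the 5 genes most like *Myc* and 0 of the 5 most like *Mycn* were shared, 3 of 10 in all. Without 1 library at a time the counts ranged from 24 to 27, 10 to 11, 13 to 15, 13 to 17 and 2 to 4. With only the groups compared, *Myc* in *Stat5a* line WT cells at 4 hr (1.17, adjusted p = 0.06) and its *Stat5a* response difference at 4 hr (-1.41, adjusted p = 0.83) lost the call with folds no smaller than those reported. The *Mycn* response difference of the *Stat5a* line at 24 hr (-2.06, adjusted p = 0.023) was lost in that fit too (-2.06, adjusted p = 0.1), by limma on log2(RPKM + 1) (-0.55), with all 48 libraries (-2.09, adjusted p = 0.79), and without WT replicate 3 or KI replicate 1 at 0 hr, or WT replicate 2 or KI replicate 3 at 24 hr (-1.56 to -1.86). By limma on log2(RPKM + 1), other calls fell below 2-fold or the test, for *Mxi1* in *Stat5a* line WT cells (-0.92) and in the *Stat5b* response difference (0.85), *Mxd4* in *Stat5a* KI cells (-0.90) and *Mnt* in WT cells (-0.74 in the *Stat5a* and -0.82 in the *Stat5b* line), all at 48 hr, and for *Mycn* in *Stat5a* line cells at 4 hr (-0.13 in WT and -0.15 in KI), WT at 24 hr (0.63) and KI at 48 hr (0.67), and in *Stat5b* KI against WT cells at 4 hr (0.09). With all 48 libraries, *Mycn* also lost the call at 4 hr in *Stat5a* line WT cells (-2.07, adjusted p = 0.13) and in *Stat5b* KI against WT cells (1.92, adjusted p = 0.37), and in the *Stat5a* response difference at 48 hr (-2.08, adjusted p = 0.32). The cause of these changes was not tested. With the replicate block, no count of the 5 moved by over 1.5 times (27, 10, 15, 16 and 4), and 4 results became called, *Myc* in *Stat5a* KI against WT cells at 4 hr (-1.01) and in the *Stat5a* response difference at 48 hr (-1.06), and *Mxd3* in the *Stat5a* response difference (-1.19) and the line difference (-1.01) at 24 hr. Low reads limit *Mycn* before 24 hr and, in *Stat5b* KI cells, at all times, and by limma on log2(RPKM + 1) its *Stat5b* KI against WT value was -1.11 at 24 hr and -2.08 at 48 hr.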
